A study of Mus musculus with 6 samples.

Results

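A set of 10 genes known for granulocytes and monocytes was examined in the chromatin of pre-B cells: Cebpa, Cebpb, Cebpe, Gfi1, Mpo, Elane, Lyz2, Csf3r, Itgam and Fcgr3. The rule that chose them lists them by name and uses no measured value, although it was written with earlier results of these data known, and they are set beside the 22367 protein-coding genes of the GENCODE M1 annotation of the mouse mm9 genome. Gfi1 is recorded there as a processed transcript, so it was counted as a member but lies outside those 22367 genes. For each gene, the entries of 3 deposited lists were recorded in the gene body plus 10 kb on each side: peaks of histone H3 acetylated at lysine 27 (H3K27ac), regions of histone H3 trimethylated at lysine 4 (H3K4me3) and peaks of the transcription factor Pax5.

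All 3 lists come from chromatin immunoprecipitation followed by sequencing (ChIP-seq) of RAG-/-µ+ pre-B cells from bone marrow of C57BL/6 mice. The cells lack the recombinase and carry a rearranged IgM transgene. These cells therefore stop at the pre-B stage with unrearranged light chain genes, and no wild-type, pro-B or myeloid sample was analysed here. The mice were 6 to 14 weeks old and of both sexes. The study's methods describe mice with a human heavy chain transgene on a Rag1-deficient background, without saying that these libraries came from them. There was 1 library for each list, so no value below has a replicate error, no difference was tested, and the 3 input libraries were not used. The lists hold no read counts, so depth is unknown, and in a bulk library a mark carried by few cells cannot be told apart from a weak mark carried by all.

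The B lineage genes used here were marked at a start more often than genes at large. Within 1000 bp of an annotated start, 49.0% of all protein-coding genes had H3K27ac, 53.0% had H3K4me3 and 38.1% had Pax5. The 9 B lineage genes used here (Cd79a, Cd79b, Cd22, Cd72, Blnk, Vpreb1, Igll1, Ebf1 and Pax5) each had an H3K27ac peak and a Pax5 peak within 1000 bp of an annotated start, and 8 had an H3K4me3 region there, all but Igll1. Of 10 T cell genes, 5 had H3K27ac, 1 had H3K4me3 and 2 had Pax5 at a start, and Cd3e and Cd8a had no entry of any list in their windows. Of 13 genes that mark granulocytes and monocytes (Mpo, Elane, Prtn3, Ctsg, Ltf, Camp, Ngp, S100a8, S100a9, Csf1r, Cd14, Emr1 and Ly6g), 9 had H3K27ac, 4 had H3K4me3 and 0 had Pax5 at a start. For H3K27ac, neither the T cell genes nor these 13 lay below the share of all genes. The highest H3K27ac score of those 13 ran from 0 at Ctsg to 69.9 in the window of Cd14, with a median of 12.1. At the Cd14 start itself the score was 4.60. How many myeloid cells the preparation held was not tested, nor was their part in the results.

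Myeloid differentiation runs from the C/EBP factors and Gfi1, which switch on granulocyte genes, to the enzymes stored in granules and to the receptors through which mature cells sense cytokines, antibody and complement. Pax5 holds B lineage cells to their fate, activating B cell genes and repressing genes of other lineages. H3K27ac is found at active promoters and enhancers, whereas H3K4me3 is found at promoters, including those of genes that are poised or repressed but rich in CpG.

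The sequences before the gene starts show how unlike these promoters were. The 250 bases before the first annotated start are given for 6 members, read 5′ to 3′ on the strand of the gene from the mm9 genome. Capitals mark the letters TTGCNNAA (the C/EBP motif), GAGGAAGT (the PU.1 motif) and GCGTGAC (a core of the Pax5 motif), searched on both strands. Cebpa and Cebpb are shown as CpG-rich starts with H3K4me3, Gfi1 as the start with the most marks, Mpo and Elane as granule genes with the PU.1 letters, and Lyz2 as the start with the fewest CpG dinucleotides.
Cebpa (chr7:35904062-35904311, + strand): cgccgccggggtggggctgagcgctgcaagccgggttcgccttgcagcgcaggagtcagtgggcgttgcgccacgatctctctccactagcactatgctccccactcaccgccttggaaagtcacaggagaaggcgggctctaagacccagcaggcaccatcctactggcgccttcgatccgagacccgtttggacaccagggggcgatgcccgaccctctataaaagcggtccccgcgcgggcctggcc
Cebpb (chr2:167514165-167514414, + strand): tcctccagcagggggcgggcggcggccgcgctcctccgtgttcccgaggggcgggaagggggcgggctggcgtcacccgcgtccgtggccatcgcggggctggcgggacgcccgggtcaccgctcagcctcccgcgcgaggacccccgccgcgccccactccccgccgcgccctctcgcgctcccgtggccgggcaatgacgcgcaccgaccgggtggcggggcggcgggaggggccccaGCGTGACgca
Gfi1 (chr5:108155057-108155306, − strand): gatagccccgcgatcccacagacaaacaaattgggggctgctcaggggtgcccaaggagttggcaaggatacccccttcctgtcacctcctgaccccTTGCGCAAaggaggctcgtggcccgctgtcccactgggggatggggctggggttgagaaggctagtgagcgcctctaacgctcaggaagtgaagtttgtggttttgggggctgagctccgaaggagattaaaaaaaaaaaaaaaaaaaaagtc
Mpo (chr11:87606833-87607082, + strand): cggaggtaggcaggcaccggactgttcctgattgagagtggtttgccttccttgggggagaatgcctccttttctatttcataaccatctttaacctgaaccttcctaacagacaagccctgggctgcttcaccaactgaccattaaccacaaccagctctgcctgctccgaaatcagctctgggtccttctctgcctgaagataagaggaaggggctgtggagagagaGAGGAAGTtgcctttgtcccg
Elane (chr10:79348807-79349056, + strand): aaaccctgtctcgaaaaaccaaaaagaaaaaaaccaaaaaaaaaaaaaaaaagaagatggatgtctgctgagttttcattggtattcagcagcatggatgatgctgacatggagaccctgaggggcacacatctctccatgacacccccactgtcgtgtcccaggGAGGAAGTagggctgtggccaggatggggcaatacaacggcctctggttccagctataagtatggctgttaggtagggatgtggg
Lyz2 (chr10:116719378-116719627, − strand): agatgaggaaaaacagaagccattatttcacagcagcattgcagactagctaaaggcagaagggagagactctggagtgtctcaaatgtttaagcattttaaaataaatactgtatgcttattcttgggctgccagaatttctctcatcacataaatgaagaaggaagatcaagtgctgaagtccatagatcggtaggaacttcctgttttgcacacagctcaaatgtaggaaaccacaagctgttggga

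The stretch shown for Gfi1 overlaps an exon of the noncoding gene A430072P03Rik, which shares this start region, and the stretches of the other 5 genes overlap no annotated exon. In the 300 bp from 250 bp before to 50 bp after the first start, Cebpb held 50 CpG dinucleotides, Fcgr3 held 36 and Cebpa held 29. The other 7 members held between 1 (Lyz2) and 9 (Gfi1), with 4 in Mpo, 5 in Cebpe and 6 each in Elane, Csf3r and Itgam. The median was 11 over the 22362 protein-coding starts with complete sequence, 21 over the 11314 of them with H3K4me3 within 1000 bp and 4 over the 11048 without.

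The CpG-rich members Cebpa, Cebpb and Fcgr3 all had H3K4me3 at the first start. At Fcgr3 it was only a region of 275 bp, in sequence with copies elsewhere in the genome, and a piece of 25 bp. Among the 7 CpG-poor members the starts of Gfi1, Itgam and Lyz2 had it, while those of Cebpe, Mpo, Elane and Csf3r did not. The C/EBP letters were present in this window of Gfi1 only, against 10.3% of all protein-coding starts. The PU.1 letters were present at Mpo and Elane, against 3.12% of starts, and the Pax5 core letters at Cebpb, against 2.58%. A match describes the letters in the window and no binding site.

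**Figure D1:**
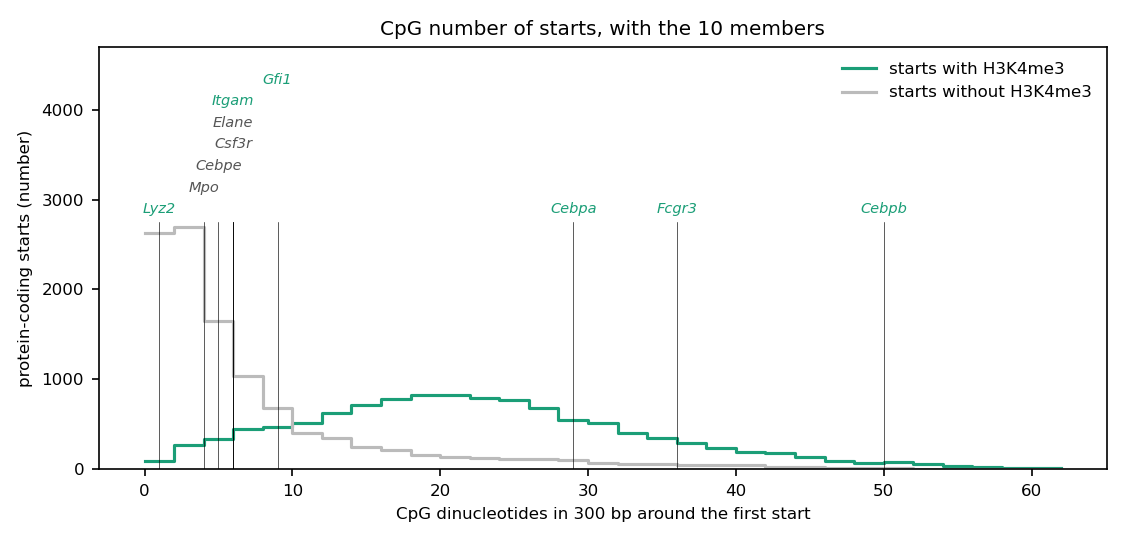
CpG dinucleotides in the 300 bp around the first start (x axis) against the number of protein-coding starts (y axis, steps of 2 CpG), for starts with H3K4me3 within 1000 bp (green line) and without (grey line). Thin vertical lines place the 10 members, named in green where H3K4me3 was present; 7 members sit at 9 CpG or fewer, and Cebpa, Fcgr3 and Cebpb lie at 29, 36 and 50.

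None of the 10 genes was silent in the sense of having no entry of any list in its window, a state found for 31.3% of protein-coding genes. Of the 10, 9 were marked by H3K27ac or H3K4me3 within 1000 bp of a start, against 56.2% of all genes. Elane alone had entries in its window but no H3K27ac or H3K4me3 at a start, against 12.5% of all genes. Its entries all lay in the flank. An H3K27ac peak lay in the window of all 10 members (63.2% of all genes), an H3K4me3 region in the window of 9 members, all but Mpo (61.5%), and a Pax5 peak in the window of 5, namely Cebpb, Gfi1, Csf3r, Itgam and Fcgr3 (52.0%).

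At the starts themselves the 3 lists parted. H3K27ac was present within 1000 bp of a start in 8 members, all but Cebpa and Elane (49.0% of all genes). H3K4me3 was present in 6 members, Cebpa, Cebpb, Gfi1, Lyz2, Itgam and Fcgr3 (53.0%), and Pax5 in 3, Cebpb, Gfi1 and Fcgr3 (38.1%). The H3K4me3 and Pax5 counts thus lay close to the share of all genes.

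The lists were also counted in combination. Cebpb, Gfi1 and Fcgr3 had all 3 lists at a start (34.9% of all genes), although at Fcgr3 the H3K27ac and Pax5 peaks lay at different annotated starts. Counting any annotated start, Cebpa was the only member with H3K4me3 and no H3K27ac at a start (7.15%). At the first start alone, Fcgr3 had this combination too. Cebpe, Mpo and Csf3r had H3K27ac and no H3K4me3, a combination found at 3.20% of protein-coding genes.

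**Figure D2:**
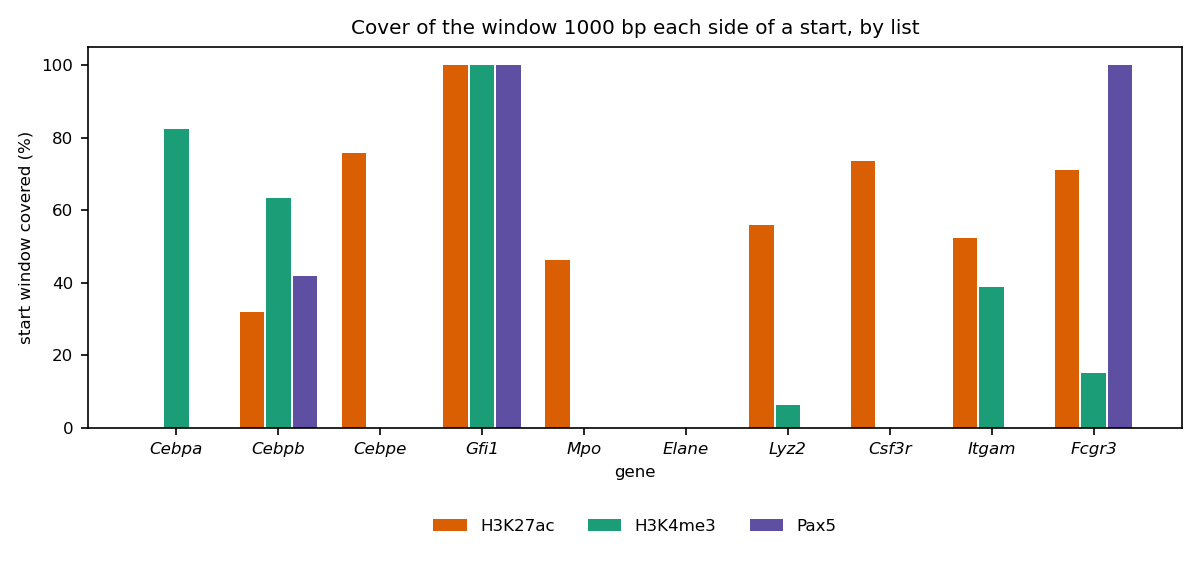
Percent of the 2001-bp start window (y axis) covered by H3K27ac peaks, H3K4me3 regions and Pax5 peaks for each member (x axis), taking for each list the annotated start with the most cover; 1 library per list, so there are no error bars. Gfi1 is covered in full by all 3 lists, Cebpa only by H3K4me3, Cebpe, Mpo and Csf3r only by H3K27ac, and Elane by none.

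Gfi1, a transcriptional repressor needed for granulocytes and used in lymphoid cells too, was the most strongly marked member. Its start window of 2001 bp, 1000 bp on each side, was covered in full by all 3 lists. The H3K27ac peak there (chr5:108151937-108155761) was 3825 bp wide with a score of 87.6, higher than 98.3% of the peaks in the list. The peak scores are the deposited ones, whose scale is not given in the sources used here, so they are compared only within a list.

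The H3K4me3 region at the Gfi1 start was 4475 bp long, against a median of 1025 bp over the 17979 regions. The Pax5 peak (chr5:108152876-108156270) had a score of 714.6, above 91.2% of the 15445 Pax5 peaks and the highest of the 9 in the members' windows. A further Pax5 peak in the 3′ part of Gfi1, centred 7.96 kb from the first start, scored 274.86 and overlapped an H3K27ac peak of 2062 bp with a score of 60.1. Gfi1 thus held the only Pax5 peak of any member in the top 10% of its list, and 2 of the members' 3 H3K27ac peaks in the top 10% of theirs.

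Cebpa, the C/EBP factor that starts the granulocyte and macrophage programme, had H3K4me3 without H3K27ac at its start. The start window was covered to 82.5% by H3K4me3, in regions of 1700 bp (chr7:35902980-35904679) and 550 bp. It held no H3K27ac at the start, and both of its H3K27ac peaks lay downstream, centred 7.67 and 8.47 kb from the start, with scores of 9.75 and 5.94. No Pax5 peak was listed in the Cebpa window.

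Cebpb, a C/EBP factor induced by inflammation and expressed in many cell types, carried all 3 lists at its start. H3K4me3 covered 63.3% of the start window in a region of 1550 bp, and a Pax5 peak of 837 bp (chr2:167513985-167514821, score 200.74) lay over the start, just under the list's median score of 207.46. H3K27ac at the start was weak: a peak of 684 bp with a score of 5.94 ended 365 bp before the start, and 20.5% of the list scored lower. The strongest H3K27ac peak of the Cebpb window stood 9.17 kb downstream, with a score of 37.4, and a Pax5 peak of 870 bp with a score of 93.8 lay within it. Cebpb lies inside Tmem189, at whose start an H3K27ac peak and a short H3K4me3 region were also listed.

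Cebpe, the C/EBP factor of late granulocyte maturation, had 9 H3K27ac peaks in its window and 3 at its start, covering 75.8% of the start window. The highest, of 947 bp just upstream (chr14:55331397-55332343), scored 19.8, and a wider one of 2144 bp over the gene body scored 10.8. H3K4me3 was absent within 1000 bp of the start: a region of 700 bp lay 2009 bp upstream and one of 75 bp lay in the intron. No Pax5 peak was listed in the window.

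The granule genes Mpo and Elane had the lowest values of highest H3K27ac score among the members, 8.01 and 8.41. Mpo, which encodes myeloperoxidase, had 4 H3K27ac peaks, with scores from 4.60 to 8.01, all under the list's median of 8.52 and all inside the gene. No H3K4me3 region and no Pax5 peak lay anywhere in its window. With only the higher-scoring 50% of H3K27ac and Pax5 peaks, Mpo had no entry at all and was the 1 member in the silent class.

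Elane, which encodes neutrophil elastase, had no entry of any list in its gene body. Its 6 H3K27ac peaks, scoring 5.26 to 8.41, all lay upstream, 4 of them inside or at the start of the neighbouring gene Prtn3, which encodes the related proteinase 3. The nearest ended 1674 bp before the Elane start. Both H3K4me3 regions, of 525 and 25 bp, also lay in or at the start of Prtn3. Counted over the gene body alone, Elane was therefore the 1 silent member.

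Lyz2, the lysozyme of macrophages and granulocytes, had 12 H3K27ac peaks, of which 3 lay at its start with scores of 14.1, 11.4 and 7.78 and covered 56.0% of the start window. H3K4me3 there amounted to pieces of 50 and 75 bp, or 6.25% of the window, and Pax5 was not listed. Lyz2 and its neighbour Lyz1 are near copies, and the aligner settings in the study's methods kept reads with up to 3 best places. Of the 12 peaks, 8 had under 80% of their 32-base stretches at 1 place only in the genome. Under the aligner settings of the study's methods, a read matching both copies equally well could be listed at each of them. The submitters' notes name a different Bowtie version, so whether those settings made the deposited lists is not certain. The effect on these peaks was not tested.

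Among the receptors, Csf3r encodes the receptor for granulocyte colony-stimulating factor. Its start window was covered to 73.6% by 3 H3K27ac peaks, scoring 15.7, 11.4 and 4.60, with no H3K4me3. The only H3K4me3 region of its window, of 1200 bp, lay at the start of the neighbouring gene Mrps15. A Pax5 peak of 682 bp with a score of 162.39 ended 5143 bp before the first start and overlapped no H3K27ac peak and no H3K4me3 region.

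Itgam encodes CD11b, the alpha chain of a complement receptor on myeloid cells. It had 19 H3K27ac peaks, the most of any member, in a gene of 65521 bp. At the start, a peak of 846 bp scored 8.16 and H3K4me3 covered 38.7% of the window in a region of 775 bp. The strongest peak, of 1966 bp with a score of 36.2, ended 2986 bp before the first start (chr7:135201203-135203168). Within the gene a peak of 1581 bp with a score of 23.7 was centred 36.6 kb from the start, and a Pax5 peak with a score of 150.68 was centred at 38.3 kb, in an intron. Of the 19 H3K27ac peaks, 1 lay at the start of the neighbouring integrin gene Itgax and 5 inside it.

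Fcgr3 encodes an activating receptor for IgG. Its 3 H3K27ac peaks at a start lay at internal annotated starts, 5.08 to 7.07 kb from the first, with scores of 11.5, 6.31 and 4.14. Within 1000 bp of the first start there was no H3K27ac peak. H3K4me3 there was a region of 275 bp and a bin of 25 bp, and Pax5 peaks of 3971 bp (score 263.94) and 7102 bp (score 208.24) covered and preceded it.

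The wide Pax5 peaks at Fcgr3 lay in sequence with copies elsewhere. Only 13.2% and 12.6% of their 32-base stretches occurred at 1 place in the genome, and 79.5% and 82.0% occurred at 2 or 3 places. The H3K4me3 region of 275 bp had 0% at 1 place. Over the members' 80 H3K27ac peaks the median was 100%, and the Pax5 peaks at Cebpb, Gfi1, Csf3r and Itgam ran from 89.6% to 100%. With the 7 entries left out that had under 50% at 1 place, Pax5 was at the start of 2 members, Cebpb and Gfi1, and these were also the 2 with all 3 lists. The effect of these copies on the Fcgr3 values was not tested.

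**Figure D3:**
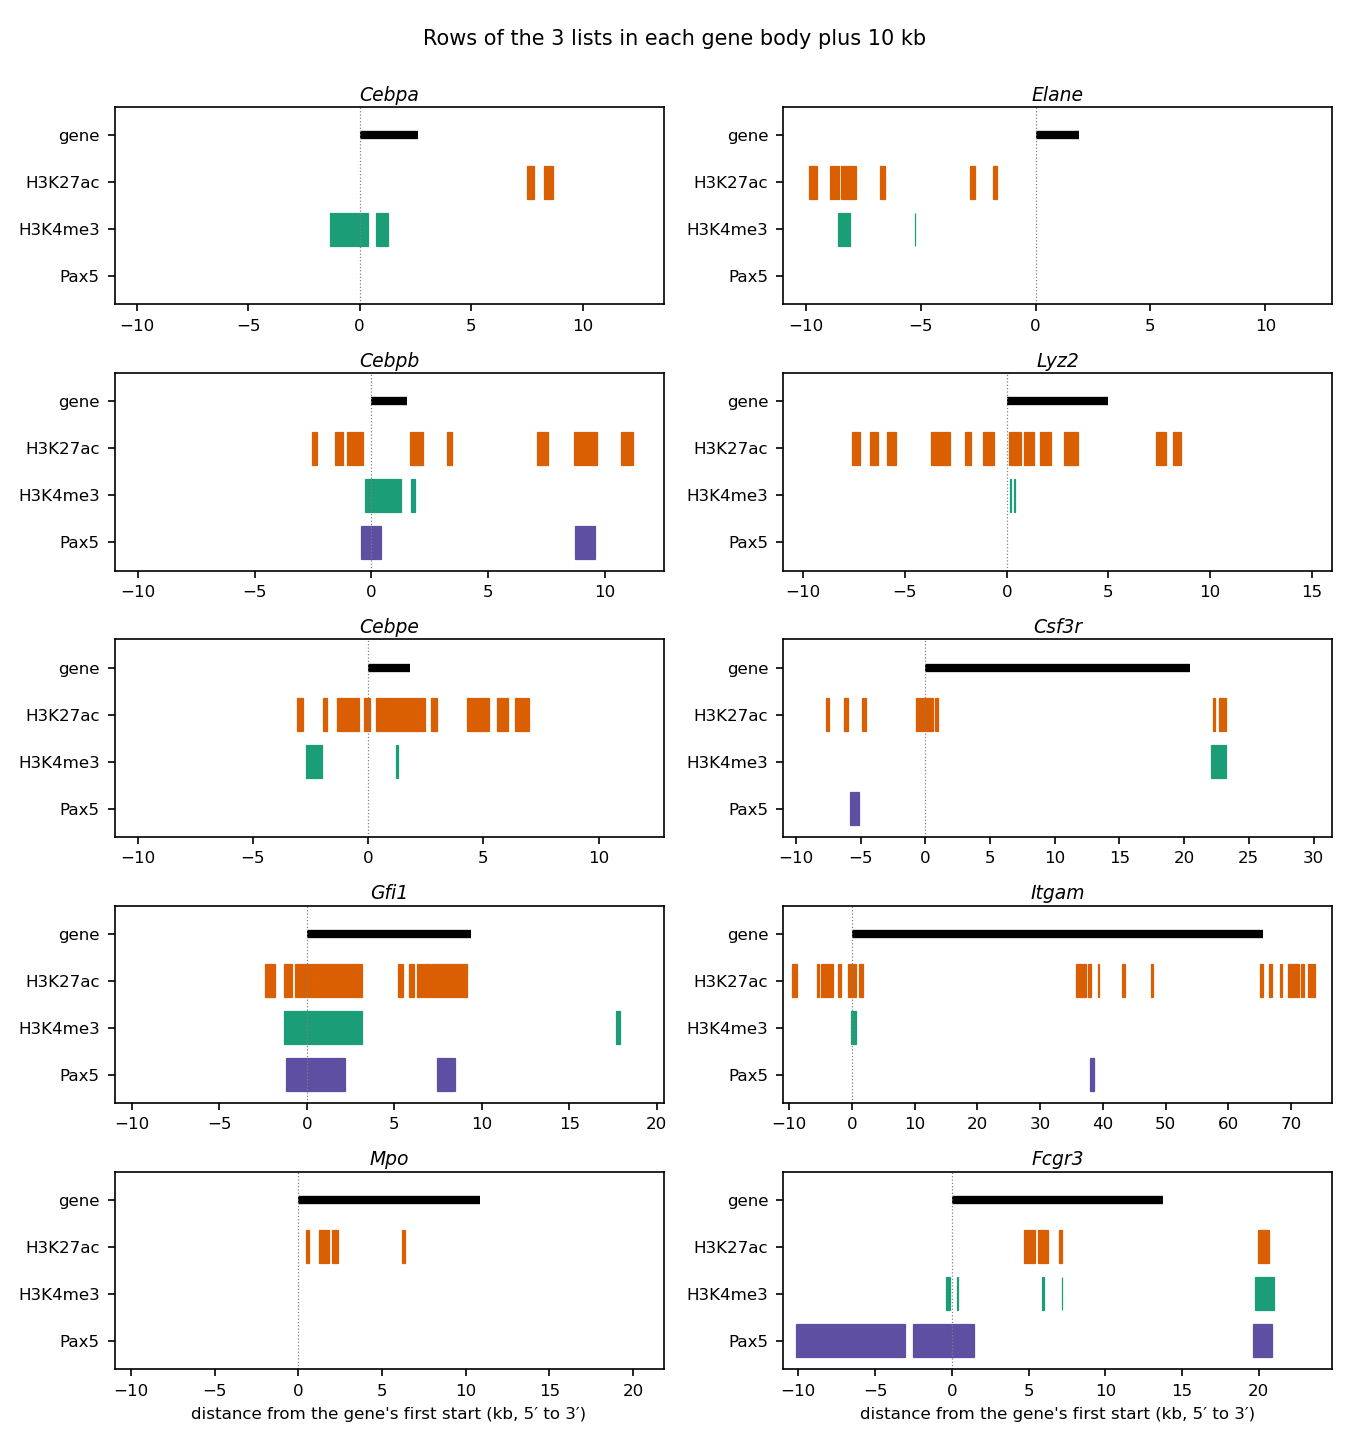
Entries of the 3 lists around each member, by distance from the gene's first start in kb (x axis, 5′ to 3′, a scale of its own for each gene), with H3K27ac peaks in orange, H3K4me3 regions in green, Pax5 peaks in purple and the gene body in black. Entries crowd the start of Gfi1, lie only downstream of the Cebpa start for H3K27ac and only upstream of Elane, and the wide Pax5 peaks of 3971 and 7102 bp stand out at Fcgr3.

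Pax5 was listed 9 times in the members' windows, 3 of them at a start. Of these 9 peaks, 6 overlapped an H3K27ac peak and 4 an H3K4me3 region, while 79.3% and 61.0% of the whole Pax5 list did. Scores ran from 93.8 to 714.6, and 4 of the 9 were above the median of the list. The Pax5 peak away from both marks at Csf3r, the intronic peak at Itgam and the 3′ peak at Gfi1 are shown as 3 of the 6 peaks beyond the starts, 1 for each of these genes, each as the 300 bp at its centre, 5′ to 3′ on the + strand of mm9, in capitals where the C/EBP, PU.1 or Pax5 core letters occur.
Gfi1 Pax5 peak centre (chr5:108146948-108147247, + strand): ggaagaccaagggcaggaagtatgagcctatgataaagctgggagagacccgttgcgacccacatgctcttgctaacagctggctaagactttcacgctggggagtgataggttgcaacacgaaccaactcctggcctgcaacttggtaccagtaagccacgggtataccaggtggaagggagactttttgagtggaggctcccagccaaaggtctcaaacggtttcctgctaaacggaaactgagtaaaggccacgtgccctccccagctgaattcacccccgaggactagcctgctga
Csf3r Pax5 peak centre (chr4:125696161-125696460, + strand): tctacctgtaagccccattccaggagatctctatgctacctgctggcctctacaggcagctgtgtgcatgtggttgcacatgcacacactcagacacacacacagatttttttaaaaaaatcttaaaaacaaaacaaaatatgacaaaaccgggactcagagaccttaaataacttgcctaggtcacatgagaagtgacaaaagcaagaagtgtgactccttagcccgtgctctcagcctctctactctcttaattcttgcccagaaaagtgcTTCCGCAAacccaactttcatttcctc
Itgam Pax5 peak centre (chr7:135244279-135244578, + strand): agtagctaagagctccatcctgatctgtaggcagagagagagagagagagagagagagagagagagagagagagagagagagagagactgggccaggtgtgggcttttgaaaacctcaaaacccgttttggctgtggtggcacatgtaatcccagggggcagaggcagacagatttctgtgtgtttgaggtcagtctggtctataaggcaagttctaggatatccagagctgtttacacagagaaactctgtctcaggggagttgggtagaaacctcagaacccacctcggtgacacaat

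None of these 3 stretches held the Pax5 core letters, which were present in 5.72% of the 15444 Pax5 peak centres of this length without a gap. Among the 9 member peaks, the core letters were in the central 300 bp of the start peaks of Cebpb and Fcgr3. The Fcgr3 start peak had only 13.2% of its 32-base stretches at 1 place in the genome. The Csf3r stretch held the C/EBP letters, present in 7.91% of all Pax5 peak centres. The Itgam stretch contains a run of repeated GA, and 7.19% of the 32-base stretches of that peak occurred at over 3 places in the genome.

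The H3K27ac of the members was mostly faint. Of their 80 peaks, 24 scored above the median of the 69345 peaks in the list and 3 were in its top 10%, the 2 at Gfi1 and the downstream peak at Cebpb. By place, 20 peaks were at a start of the member, 5 at the start of a neighbouring gene, 13 elsewhere in another gene, 9 in introns, 6 over exons and 27 between genes. The highest score per gene had a median of 14.9 over the 10 members, against 15.0 over all protein-coding genes, counting genes without a peak as 0.

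Beside genes of the B lineage these scores were low. The highest H3K27ac score ran from 50.2 to 101 over the 9 B lineage genes, with a median of 65.3. The windows of the neighbours Vpreb1 and Igll1 share the peak with this score, which was counted for both. At its own start Igll1 had 58.8. Of the members only Gfi1, at 87.6, fell within 50.2 to 101, and the other 9 members ran from 8.01 at Mpo to 37.4 at Cebpb. The median cover of the start window in the B lineage genes was 100% by H3K27ac, 74.5% by H3K4me3 and 68.4% by Pax5, against 54.2%, 10.6% and 0% in the members. In the T cell genes the highest H3K27ac score had a median of 26.2, and not all of these peaks lay at the gene's start. Cd3d and Cd3g had no H3K27ac at a start but scores of 83.8 and 114 in the window. Lat had 10.6 at its start and 58.7 in the window. Of the H3K27ac peaks, 2 of 3 in the Cd3g window and 3 of 5 in the Lat window lay at the start of another gene. The windows of the neighbours Cd3d and Cd3g overlap. At Cd5, Cd28 and Lck the highest score was at a start. These are values side by side from the same libraries, and the difference was not tested.

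**Figure D4:**
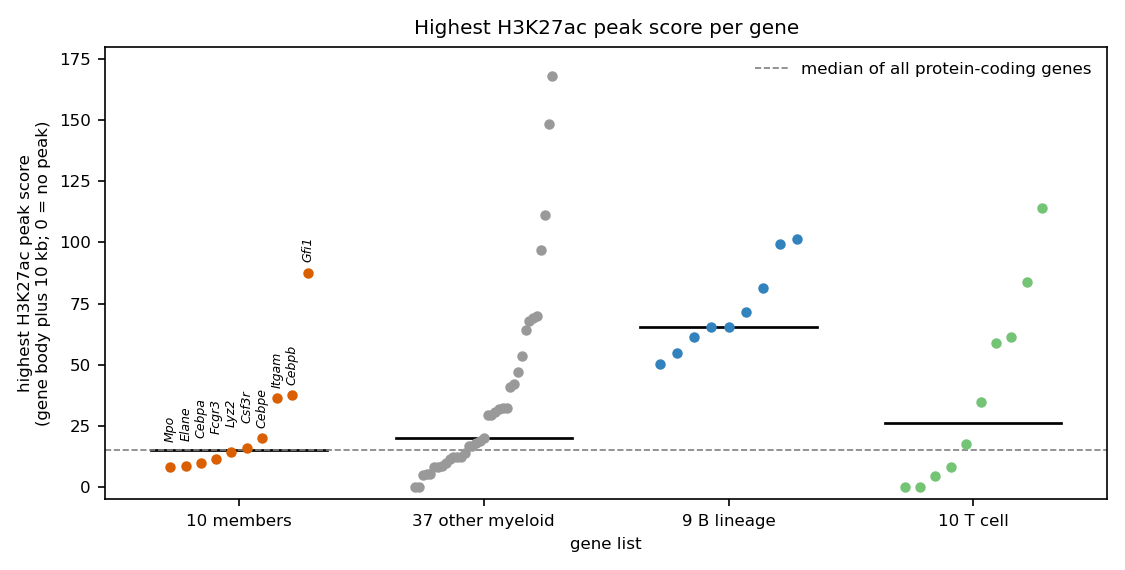
Highest H3K27ac peak score in the gene body plus 10 kb (y axis, deposited score, 0 where no peak was listed) for each gene of 4 lists (x axis), 1 point per gene, with the list's median as a black bar and the median of all protein-coding genes (15.0) as a dashed line. The members sit between 8.01 and 37.4 apart from Gfi1 at 87.6, while the 9 B lineage genes all lie at 50.2 or above.

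Among 37 other myeloid genes, 35 had H3K27ac, 24 had H3K4me3 and 15 had Pax5 in the window, and 29, 19 and 5 had them at a start. Among all protein-coding genes, 63.2%, 61.5% and 52.0% had them in the window, and 49.0%, 53.0% and 38.1% at a start. One gene, Ctsg, the granule protease cathepsin G, was silent. Another 6 (Ms4a3, Fcgr1, Emr1, Ly6g, Lyz1 and Chi3l3) had entries but no H3K27ac or H3K4me3 at a start, and 30 were marked there. Of all protein-coding genes, 31.3%, 12.5% and 56.2% fell in these classes. Prtn3, Lyz1 and Itgax lie beside members, so some peaks were counted in the windows of both lists. By role, H3K4me3 was at a start of 6 of 6 of these transcription factors, 3 of 11 granule protein genes, 7 of 14 receptor genes and 3 of 6 oxidase and lysosome genes. Cebpd, 1 of these 6 transcription factors, is recorded as a pseudogene and lies outside the 22367 protein-coding genes. Among the members H3K4me3 was at a start of 3 of 4 transcription factors, 1 of 3 granule protein genes and 2 of 3 receptor genes. Over the 37 genes, and in their receptor and oxidase groups, it lay close to the share of all genes. The groups are small, and no difference between roles was tested.

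H3K27ac with no H3K4me3 at a start, as at Cebpe, Mpo and Csf3r, was found in 11 of the 37, of which 6 were granule protein genes (Ltf, Camp, Ngp, S100a9, Mmp8 and Mmp9). It was found in 4 of the 10 T cell genes, in Igll1 alone of the B lineage genes and at 3.20% of all protein-coding genes. The 688 protein-coding first starts of this kind had a median of 4 CpG dinucleotides, close to Cebpe, Mpo and Csf3r, which held 4 to 6. The median was also 4 over all 11048 starts without H3K4me3, and Elane, with neither mark at its start, held 6.

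All 3 lists stood at a start of 5 of the 37, namely Spi1, Irf8, Klf4, Csf2ra and Ncf4, against 34.9% of all protein-coding genes. Spi1, Irf8 and Ncf4 are also used in B cells, and their highest H3K27ac scores were 168, 96.8 and 111, while Klf4 had 42.2 and Csf2ra 149. Over the 7 other myeloid genes also used in B cells, H3K4me3 was at a start of 6 and Pax5 of 3. Over the other 30 these numbers were 13 and 2, and over all protein-coding genes the shares were 53.0% and 38.1%. The granule protein genes had Pax5 at no start, 0 of 11, as did the member granule genes Mpo, Elane and Lyz2.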

How the data were processed

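ChIP-seq lists of RAG-/-µ+ pre-B cells were used, 1 library each for H3K27ac, H3K4me3 and Pax5. Per the study's methods, duplicates were removed and reads aligned to mm9 with Bowtie, keeping those with up to 3 best places. The submitters' processing notes name Bowtie 0.12.9 and MACS 1.4.2. The methods name a different Bowtie version, so whether their settings made the deposited lists is not certain. The score of each H3K27ac and Pax5 peak was used as deposited by the authors, with its scale not given in the sources used here. The H3K4me3 list as deposited holds 782636 bins of 25 bp with no value, joined here across gaps of up to 100 bp. Entries counted with an overlap of at least 1 bp with the gene body plus 10 kb, or with 1000 bp on each side of any annotated transcript start (Python 3.11.15, numpy 2.4.6). The named genes are the members and the lists of other myeloid, B lineage and T cell genes. Of the B lineage list, 1 gene is not reported here. Members and lists were chosen with earlier results of these data known. Interval code was tested on simulated data. Exact copies of 32-base stretches were counted on both strands of the mm9 chromosomes. No test was possible with 1 library per list, and depth is unknown. The alternatives tried were score cuts, other window sizes, midpoints and other joining of bins.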

Additional observations from a re-analysis of the deposited data

How the results depend on the processing

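Of 117 values under alternative settings, covering 12 counts, 93 stayed within 1.5 times and 24 did not. Part of the 93 could not have moved. The H3K4me3 list has no score, so score cuts left its counts as they were. Settings for H3K4me3 bins and regions left the H3K27ac and Pax5 counts as they were. A fall from 9 to 6 members marked at the start, with the higher-scoring 10% of peaks, counted as within 1.5 times. With the higher-scoring 50% of peaks, Pax5 was in the window of 2 members, H3K27ac at the start of 5 and 1 member (Mpo) was silent, with 24 H3K27ac and 4 Pax5 peaks left. Over the gene body alone, 1 member (Elane) was silent, 0 had entries away from the start only, and 30 H3K27ac, 11 H3K4me3 and 5 Pax5 entries remained. With 50 kb on each side, 9 members had Pax5 and the entries were 188, 50 and 32. With 2000 bp on each side of a start, 0 members had entries away from the start only, because Elane's nearest peak fell inside. The settings that follow were chosen after seeing the data. H3K4me3 regions of at least 200 bp numbered 11. With the higher-scoring 10% of peaks, H3K27ac was in the window of 2 members and at the start of 1, Pax5 in the window of 1 and at the start of 1, 1 member (Mpo) was silent and 3 (Cebpe, Elane and Csf3r) had entries away from the start only, with 3 H3K27ac peaks and 1 Pax5 peak left. Leaving out entries in repeated sequence took Pax5 at a start from 3 to 2 members, and leaving out entries at a neighbour's start moved no count past 1.5 times. Of the settings chosen earlier, midpoints, other joining of bins, 500 bp windows and first starts only moved no count past 1.5 times. A paired analysis could not be made, since every list rests on 1 library. Depth is unknown, so a missing entry says only that none was listed.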
